A study of Mus musculus with 17 samples.

Results

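The HOXA and MEIS leukaemic programme was followed through 10 genes in the bone marrow of leukaemic mice. The 10 genes were the HOX genes Hoxa3, Hoxa5, Hoxa6, Hoxa7, Hoxa9, Hoxa10 and Hoxb4, the cofactor genes Meis1 and Pbx3, and the coactivator gene Mn1. They were found by symbol among 56305 genes counted, and each symbol matched 1 identifier. Every mouse carried the heterozygous alleles Dnmt3aR878H/+ and Npm1cA/+ on the C57BL/6 background and had acute myeloid leukaemia (AML), controls included. The series compared control bone marrow with bone marrow labelled Mt1ko, in which CRISPR-Cas9 had been used to lower Metallothionein 1 (Mt1), a small metal-binding protein. There were 8 control and 9 Mt1ko libraries of bulk total RNA, all labelled technical replicates, which the authors summed into 3 control samples (libraries 1-3, 7-9 and 14-15) and 3 Mt1ko samples (4-6, 10-12 and 16-18). Age, the guide RNA, the cells edited and the share of leukaemic cells in each marrow were not given in the sources used here, and nothing said that the 6 samples came from separate animals. What the p-values measure is therefore the spread among those sums, part of which may be technical.

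HOX proteins are homeodomain transcription factors, and the genes of the HOXA cluster are normally most active in blood stem and progenitor cells and fall as cells mature. MEIS and PBX proteins are homeodomain factors of the TALE class that bind DNA together with HOX proteins, and HOXA9 with MEIS1 is the classic pair that transforms myeloid progenitors. In AML with mutant NPM1, high HOXA, HOXB and MEIS1 expression is a well-known feature, and MN1 is a coactivator that is linked to the same programme in other myeloid leukaemias.

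The promoters of 5 members are shown because they span the range of CG content among the members, and CG is the dinucleotide that enzymes of the Dnmt3a family methylate. Each line is the stretch before the RefSeq gene start on GRCm38.p6, printed 5′ to 3′ on the gene's own strand, with every CG in capitals. The windows are chr6:52227371-52227620 (minus strand) for Hoxa9, chr6:52234940-52235189 (minus) for the inner start of Hoxa10, chr6:52204588-52204837 (minus) for Hoxa5, chr11:96318017-96318266 (plus) for Hoxb4 and chr11:19018986-19019219 (minus) for Meis1. The Meis1 window was cut at 234 bases because the annotated first exon begins there, and the other 4 windows are 250 bases.
Hoxa9: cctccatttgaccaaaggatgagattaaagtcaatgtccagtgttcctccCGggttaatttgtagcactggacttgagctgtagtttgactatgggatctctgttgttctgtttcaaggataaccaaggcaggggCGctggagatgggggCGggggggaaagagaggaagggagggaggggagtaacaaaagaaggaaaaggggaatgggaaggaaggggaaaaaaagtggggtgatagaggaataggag
Hoxa10: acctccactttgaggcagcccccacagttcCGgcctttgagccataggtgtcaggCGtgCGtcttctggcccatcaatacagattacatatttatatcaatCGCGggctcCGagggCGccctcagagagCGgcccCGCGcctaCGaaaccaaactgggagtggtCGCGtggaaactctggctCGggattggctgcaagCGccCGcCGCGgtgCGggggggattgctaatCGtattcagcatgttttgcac
Hoxa5: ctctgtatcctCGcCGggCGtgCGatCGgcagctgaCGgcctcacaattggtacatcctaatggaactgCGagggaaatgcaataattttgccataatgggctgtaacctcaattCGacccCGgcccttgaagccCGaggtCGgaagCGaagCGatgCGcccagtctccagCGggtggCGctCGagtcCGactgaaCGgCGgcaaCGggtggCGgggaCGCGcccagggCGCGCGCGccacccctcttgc
Hoxb4: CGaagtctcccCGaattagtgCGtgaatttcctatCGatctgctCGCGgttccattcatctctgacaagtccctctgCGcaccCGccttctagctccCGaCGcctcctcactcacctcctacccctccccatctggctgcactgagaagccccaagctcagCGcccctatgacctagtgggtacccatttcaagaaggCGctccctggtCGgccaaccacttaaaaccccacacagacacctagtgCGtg
Meis1: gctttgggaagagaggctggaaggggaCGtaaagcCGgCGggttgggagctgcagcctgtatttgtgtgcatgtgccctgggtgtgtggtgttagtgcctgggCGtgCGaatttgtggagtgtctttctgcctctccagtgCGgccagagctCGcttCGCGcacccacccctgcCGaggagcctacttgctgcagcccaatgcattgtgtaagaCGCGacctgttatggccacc

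The Hoxa9 window, which lies inside the gene as GENCODE vM21 annotates it (bases 52223100 to 52231089), held 3 CG, fewer than any other member's, and 29.0% of 32851 RefSeq promoters held fewer. The Hoxa5 window held 28, with 92.4% of promoters lower. The inner Hoxa10 start held 20, with 82.1% lower, and the outer Hoxa10 start (chr6:52240855-52241104, minus), which is not printed, held 7, with 53.7% lower. Hoxb4 held 14 CG in its window, and Meis1 held 12 in the 234 bases shown and 13 in the full 250 bases. The median of all promoters was 6 CG. RefSeq windows were found for 8 of the 10 members, and Pbx3 and Mn1 were not among them. The HOX and TALE composite motif TGATTNAT, searched on both strands, was in none of the 9 member windows and in 2.82% of all promoters. The MEIS motif TGACAG was in the Hoxa3 window alone among the members, and in 15.9% of all promoters. CCAAT, on either strand, was in the windows of Hoxa5, Hoxa6, Meis1 and the inner Hoxa10 start, and in 33.8% of all promoters. These matches describe letters in short windows, and methylation was not measured here.

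Libraries held 27124722 to 38645072 counts. Library 6, labelled Mt1ko, held 326 CPM of Mt1 (CPM are counts scaled to the library total), close to the lowest control library at 348 CPM, while the other 8 Mt1ko libraries held 41.8 to 87.2 CPM. Directions drawn from sample Mt1ko 4-6, which contains it, carry that limit. Libraries 10 to 12, which make up sample Mt1ko 10-12, stood apart from the other 14: 21.9 to 30.2% of their counts fell on mitochondrial ribosomal RNA, beside 4.58 to 11.2% in the others, and 11548 to 13174 genes had a count in them against 14823 to 17739. The summed level of 15 mast cell and basophil markers was 5917 CPM in that sample and 195 to 965 CPM in the other 5. Control 7-9 came next after Mt1ko 10-12 in these measures, with 965 CPM of the markers. Its libraries 8 and 9 held 8.77 and 11.2% mitochondrial ribosomal RNA and 15404 and 14823 genes with a count. Not all of these 15 markers were raised in Mt1ko 10-12. Tpsb2, Cpa3 and Cma1 were the highest in Mt1ko 10-12, at 1652, 1564 and 1295 CPM. Mcpt8 and Mcpt4 were at 0 in it, and Hdc was 0.252 CPM, beside 0.0629 to 0.769 CPM in the other samples. Prss34 and Cpa1 had no count in any library. All 15 monocyte and macrophage markers were detected, at a summed 12319 to 15754 CPM, which does not by itself identify the tissue as marrow. Stroma and endothelium markers summed to 91.2 CPM in Mt1ko 10-12 and 15.9 to 27.5 CPM elsewhere, and B cell markers to at most 0.805 CPM over the 6 samples. Pecam1, which blood cells also express, made up 89.0 of those 91.2 CPM, and Cdh5 and Cxcl12 were at 0 there. Neutrophil markers summed to 192 to 396 CPM and were lowest in Mt1ko 10-12, where Mmp8 alone was 171 CPM, Elane was 1.37 CPM, and Mpo and Ctsg were at 0. Erythroid markers summed to 48.3 to 126 CPM, and in Mt1ko 10-12 Tfrc was 90.5 CPM while Hba-a1 and Alas2 were at 0. The part of these differences in the member values below was not tested. In bulk RNA, fewer cells of a type and less RNA per cell cannot be told apart.

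The HOXA genes Hoxa3, Hoxa5, Hoxa7, Hoxa9 and Hoxa10 and the cofactor gene Meis1 were counted in every library. Hoxa6 and Pbx3 had no count in some libraries, Hoxb4 was near 0 in most and Mn1 had no count at all. None of the 8 members tested differed between control and Mt1ko at the threshold used, an adjusted p under 0.05 over all 16666 genes tested (edgeR quasi-likelihood test, Benjamini-Hochberg adjustment). The same fit called 0% of the tested genes. At an unadjusted p under 0.05 it marked none of the members and 1.03% of all genes, or 171 genes. DESeq2 and limma-voom called none of the members either. Of the 8 members, 6 had higher means in Mt1ko and 2 had lower, with a median log2 fold change of 0.11, beside -0.01 over all genes tested, of which 48.3% were higher. No member's 3 control samples lay wholly apart from its 3 Mt1ko samples, a pattern that 7.1% of tested genes showed (2.74% with Mt1ko higher and 4.36% with Mt1ko lower). Hoxb4 and Mn1 did not pass the filter on low counts and were not tested.

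**Figure D1:**
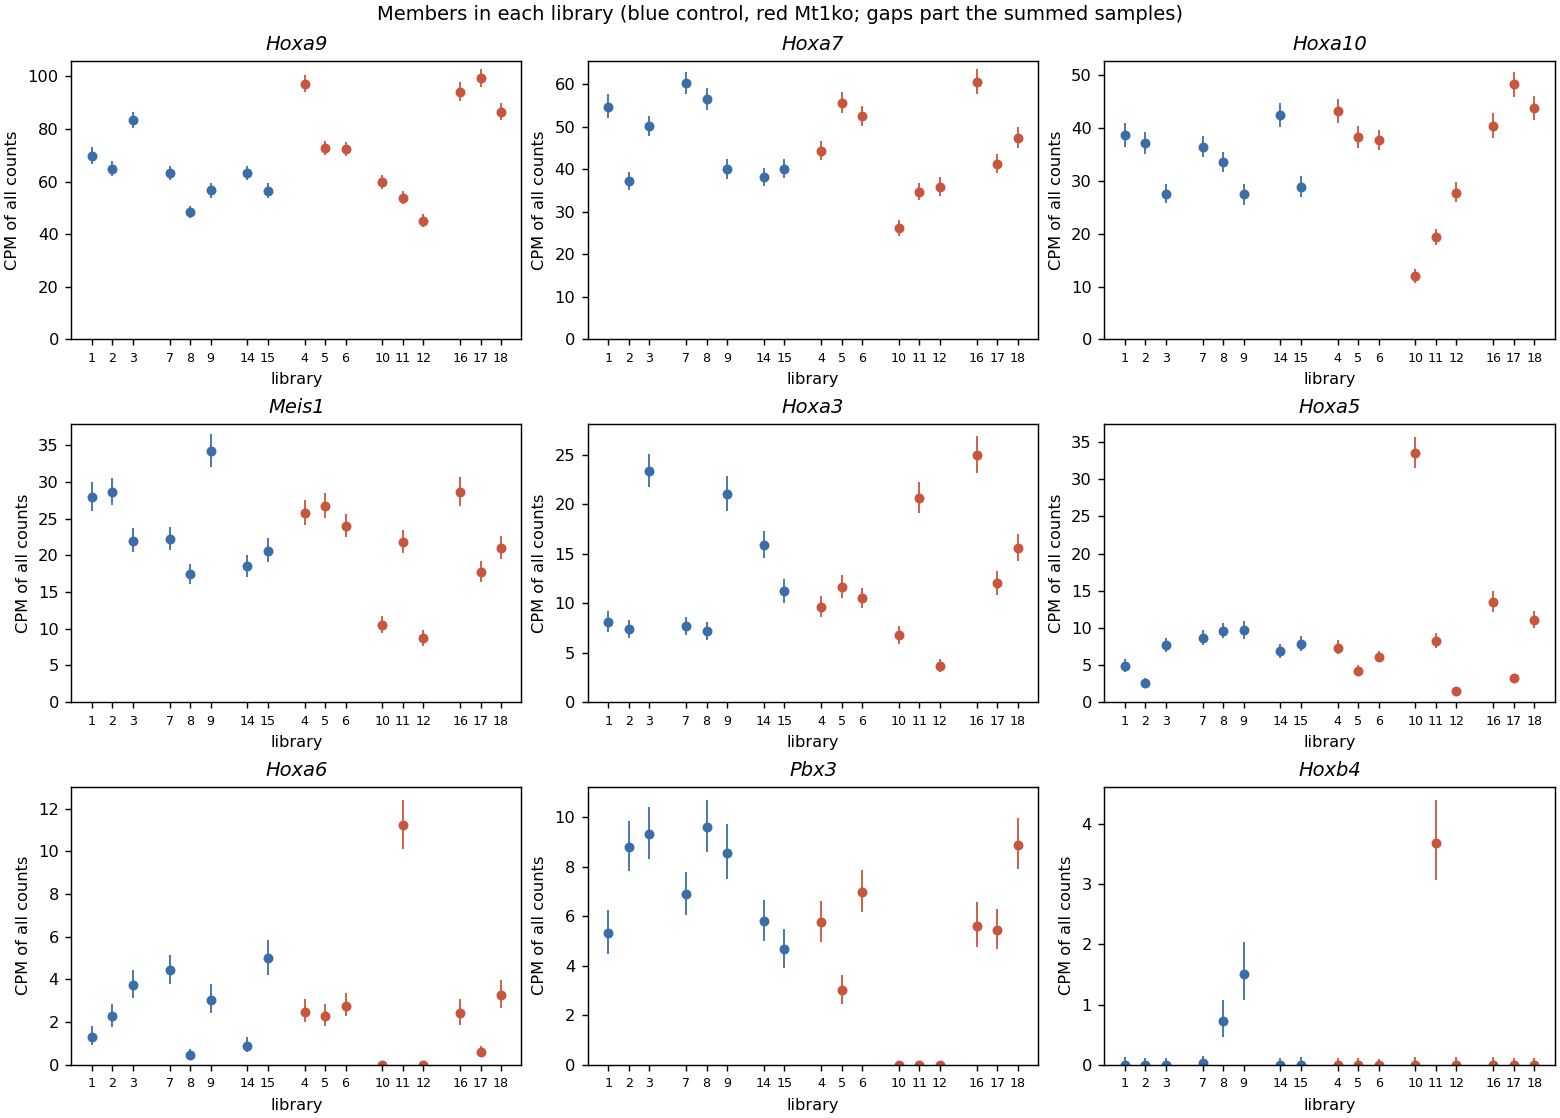
CPM of all counts in a library (vertical axes, each from 0) for 9 members in each of 17 libraries (horizontal axes), with control in blue and Mt1ko in red. Points are library values, bars are exact 95% Poisson limits that cover counting error only, and gaps part the summed samples; Mn1 had no counts and is not drawn. Hoxa9 was highest in library 17 at 99.4 CPM and lowest in library 12 at 45.1 CPM, and Pbx3 was at 0 in libraries 10, 11 and 12.

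Hoxa9 encodes the HOX factor most closely tied to myeloid transformation. It lies on chromosome 6, 52223100 to 52231089, minus strand (GRCm38, ENSMUSG00000038227), and its exons hold the microRNA gene Mir196b, which was listed at 0. Control samples 1-3, 7-9 and 14-15 held 70.7, 53.4 and 57.3 CPM after normalisation, and Mt1ko samples 4-6, 10-12 and 16-18 held 80.0, 62.1 and 90.7 CPM. Samples Mt1ko 4-6 and 16-18 were above every control sample, and Mt1ko 10-12 lay among the controls. The means were 60.5 ± 9.07 and 77.6 ± 14.4 CPM (SD, n = 3 each). This is a log2 fold change of 0.36 (SE 0.18, 95% interval -0.06 to 0.78; edgeR unadjusted p = 0.0858, adjusted p = 1). By exact permutation of the 6 samples, two-sided, p was 0.2, where 0.1 is the smallest that 3 against 3 allow.

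Among libraries, Hoxa9 ran from 48.4 to 83.3 CPM with a median of 63.3 in the 8 controls, and from 45.1 to 99.4 with a median of 72.7 in the 9 Mt1ko libraries. The 4 highest libraries were all labelled Mt1ko, namely 17, 4, 16 and 18, and the lowest library was Mt1ko too, library 12. The libraries carried 3 second index sequences, which were unevenly spread over the groups. With the first, the mean Hoxa9 level was 65.9 CPM over 5 control libraries and 80.8 CPM over 3 of Mt1ko, all of sample 4-6. With the second, it was 58.8 CPM over 3 control and 63.2 CPM over 4 Mt1ko libraries, and the third was carried by 2 Mt1ko libraries alone, at 92.9 CPM. Of those 4, library 16 held 94.1 CPM and libraries 10, 11 and 12 held 59.8, 53.8 and 45.1 CPM. In CPM of all counts, the higher Mt1ko mean with the second index thus rested on library 16. Mitochondrial ribosomal RNA took 21.9 to 30.2% of the counts in libraries 10 to 12, and its part in these values was not tested. After normalisation, sample Mt1ko 10-12 held 62.1 CPM, above control 7-9 at 53.4 and control 14-15 at 57.3 CPM. It lay below control 1-3 at 70.7 CPM. A test over libraries was not made for the index means because so few samples stood behind each.

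Leaving out sample Mt1ko 10-12 raised the Hoxa9 log2 fold change to 0.50 (SE 0.16; edgeR adjusted p = 1), and the remaining 2 Mt1ko samples then lay above all 3 controls. In that comparison 17.5% of tested genes lay apart in the same way. With library 6 left out of its sum, the log2 fold change was 0.39 (SE 0.19). The adjusted p stayed at 0.98 or above under all 22 alternatives.

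Hoxa10 encodes a neighbour of Hoxa9 that, like it, restrains differentiation of myeloid progenitors when overexpressed. It lies at 52231197 to 52240854 on the same strand (ENSMUSG00000000938). In the same order, the controls held 33.2, 31.3 and 34.3 CPM and the Mt1ko samples 39.6, 23.1 and 43.2 CPM. The controls sat close together, with 2 Mt1ko samples above them and Mt1ko 10-12 below them. The means were 32.9 ± 1.496 and 35.3 ± 10.7 CPM (SD, n = 3 each), a log2 fold change of 0.10 (SE 0.24, 95% interval -0.45 to 0.65; edgeR adjusted p = 1). Without Mt1ko 10-12 it was 0.33 (SE 0.14; edgeR adjusted p = 1) and the groups lay apart, as they did in 17.5% of tested genes in that comparison. Library 10 held the lowest level, 12.0 CPM, followed by library 11 at 19.3 CPM, and the highest was library 17 at 48.3 CPM.

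Hoxa7, the next gene toward the anterior end of the cluster, is a HOX factor that is co-expressed with Hoxa9 in many myeloid leukaemias. It lies at 52214491 to 52221854 (ENSMUSG00000038236), and 20.4% of its exon bases are also covered by Hoxaas3 on the other strand, which itself had 9 counts in all. Its normalised level was 45.5, 50.7 and 37.3 CPM in control and 51.0, 38.0 and 47.7 CPM in Mt1ko. The groups were interleaved. The means were 44.5 ± 6.75 and 45.5 ± 6.74 CPM (SD, n = 3 each), a log2 fold change of 0.03 (SE 0.18, 95% interval -0.38 to 0.44; edgeR adjusted p = 1). The interval leaves room for a change in either direction. In CPM of all counts, Hoxa7 was 26.2 to 35.9 in libraries 10 to 12, below the other 14 libraries, which held 37.2 to 60.5. Mitochondrial ribosomal RNA took 21.9 to 30.2% of the counts in libraries 10 to 12. On the normalised scale the separation was not seen, with Mt1ko 10-12 at 38.0 CPM and control 14-15 lower at 37.3 CPM. The part of the mitochondrial RNA in the library values was not tested.

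Hoxa5, Hoxa3 and Hoxa6, the other HOXA members, were lower per kilobase of exon than Hoxa7, Hoxa9 and Hoxa10. Hoxa5, a HOX factor also known for its role in lung development, measured 4.89, 8.80 and 6.98 CPM in control and 5.86, 16.7 and 8.69 CPM in Mt1ko. Mt1ko 10-12 stood above the rest, and within it library 10 held 33.6 CPM while libraries 11 and 12 held 8.22 and 1.54 CPM. The fitted log2 fold change of Hoxa5 was 0.60 (SE 0.44, 95% interval -0.43 to 1.62; edgeR adjusted p = 1), and it was -0.012 (SE 0.39) when library 10 was left out of its sum.

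Hoxa3, an anterior gene of the cluster with roles in thymus and blood vessel development, measured 12.8, 10.6 and 13.02 CPM in control and 10.6, 12.6 and 16.5 CPM in Mt1ko. The groups overlapped, with a log2 fold change of 0.12 (SE 0.25, 95% interval -0.47 to 0.71; edgeR adjusted p = 1). Of its exon bases, 25.4% are shared with antisense genes and 8.01% with the readthrough gene Gm28308, and how the counting used strand was not given in the sources used here. Hoxa6, a small gene between Hoxa5 and Hoxa7, had normalised levels of 2.43, 2.51 and 2.72 CPM in control and 2.52, 4.70 and 2.00 CPM in Mt1ko. Its fitted log2 fold change was 0.27 (SE 0.54, 95% interval -0.99 to 1.53; edgeR adjusted p = 1), and -0.17 (SE 0.42) without Mt1ko 10-12. Library 11 held 11.2 CPM of Hoxa6 from 374 counts, and libraries 10 and 12 held none.

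Hoxb4, a HOX factor known for expanding blood stem cells, was the only HOXB gene among the members. It lies on chromosome 11, 96318267 to 96321638, plus strand (ENSMUSG00000038692). It had 190 counts in all, of which 67 came from the control libraries 7, 8 and 9 and the rest from library 11. Summed levels were 0.647 CPM in control 7-9, 1.55 CPM in Mt1ko 10-12 and 0 in the other 4 samples. The gene was thus seen in 4 of 17 libraries, at 0.0273 to 3.69 CPM, and the groups could not be compared at this depth.

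Meis1 encodes the TALE cofactor that stabilises HOX proteins on DNA and speeds leukaemia driven by Hoxa9. It lies on chromosome 11, 18879817 to 19018985, minus strand (ENSMUSG00000020160), and 9.77% of its exon bases are shared with Gm37818 on the same strand. The controls held 25.3, 22.7 and 18.6 CPM and the Mt1ko samples 25.4, 16.4 and 21.4 CPM. The groups overlapped, with Mt1ko 10-12 lowest of the 6. The means were 22.2 ± 3.39 and 21.1 ± 4.52 CPM (SD, n = 3 each), a log2 fold change of -0.07 (SE 0.22, 95% interval -0.59 to 0.44; edgeR adjusted p = 1). Without Mt1ko 10-12 it was 0.08 (SE 0.19). Among libraries, Meis1 was lowest in libraries 12 and 10, at 8.71 and 10.5 CPM, and highest in control library 9, at 34.2 CPM.

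Pbx3, the PBX partner that is upregulated with HOXA9 in AML, lies on chromosome 2, 34171457 to 34373142, minus strand (ENSMUSG00000038718). The controls held 7.72, 7.89 and 5.00 CPM and the Mt1ko samples 5.29, 0 and 6.50 CPM. All 3 libraries of Mt1ko 10-12 had 0 counts, where 3 counts would have been 0.0900 to 0.1001 CPM, and the other 14 libraries held 3.01 to 9.61 CPM. With that sample the log2 fold change was fitted at -0.80 (SE 1.37, 95% interval -3.98 to 2.38; edgeR adjusted p = 1), and without it at -0.22 (SE 0.32). The part of the low gene number and mitochondrial RNA of these libraries in the missing counts was not tested. Mn1, the coactivator gene on chromosome 5, 111417362 to 111457033, had 0 counts among 549509951 over the 17 libraries, which allows a level of up to 0.00546 CPM at 3 counts.

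**Figure D2:**
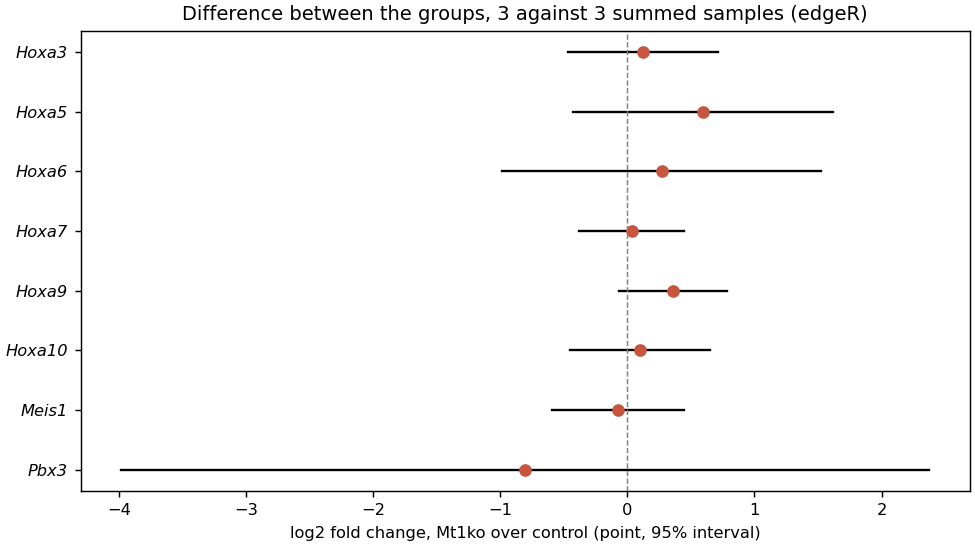
Log2 fold change of Mt1ko over control (horizontal axis) for the 8 tested members (vertical axis), from edgeR on 3 against 3 summed samples. Points are estimates, bars are 95% intervals and the dashed line is no change; every interval crosses 0, the narrowest around Hoxa7 and Hoxa9 and the widest around Pbx3.

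Levels were compared between genes per length, as normalised CPM per kilobase of all annotated exons, over the 6 samples. Hoxa7 was highest at 15.7 ± 2.11, followed by Hoxa9 at 12.4 ± 2.56 and Hoxa10 at 10.4 ± 2.13 (SD, n = 6). Hoxa5 followed at 4.61 ± 2.26, Hoxa6 at 3.22 ± 1.09, Hoxa3 at 2.11 ± 0.362, Meis1 at 2.06 ± 0.344 and Pbx3 at 0.884 ± 0.475. The ranges of neighbours in this order overlapped except between Meis1 and Pbx3. Hoxa7 was above Hoxa9 in 6 of 6 samples and Hoxa9 above Hoxa10 in 4 of 6.

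On the same per kilobase scale, Hoxa7 was above 84.2% and Hoxa9 above 80.2% of 16411 tested genes with an annotated length. Meis1 was above 44.9% and Pbx3 above 31.3%. The cofactor genes thus sat in the middle and lower part of the tested genes, and the trio Hoxa7, Hoxa9 and Hoxa10 above 77.2% of them or more. The choice of length matters: with the longest transcript in place of all exons, Hoxa7 was 22.2 and Hoxa9 21.4, and Hoxa3 rose to 4.90, above Hoxa5 at 4.61.

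Along the HOXA cluster the highest means per kilobase were those of 3 neighbouring genes, Hoxa7, Hoxa9 and Hoxa10. The cluster spans 105291 bases of chromosome 6 and holds 11 HOXA protein genes, of which 10 reached 1 CPM on average. Per kilobase of exon, Hoxa11, the gene on the posterior side of the block, was at 5.11, and Hoxa13 at the posterior end was at 0.0814. On the anterior side, Hoxa2 was at 1.08 and Hoxa4 at 1.25. Other features of the cluster, were mostly noncoding RNAs, and 11 of 20 had no count, while Hoxa11os held 4709 counts and 2.75 CPM per kilobase. The HOXA genes together made up 97.5% of all counts in HOX genes. Of 27 other HOXB, HOXC and HOXD genes apart from Hoxb4, 18 had no count, and none of the 9 HOXD genes had any.

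**Figure D3:**
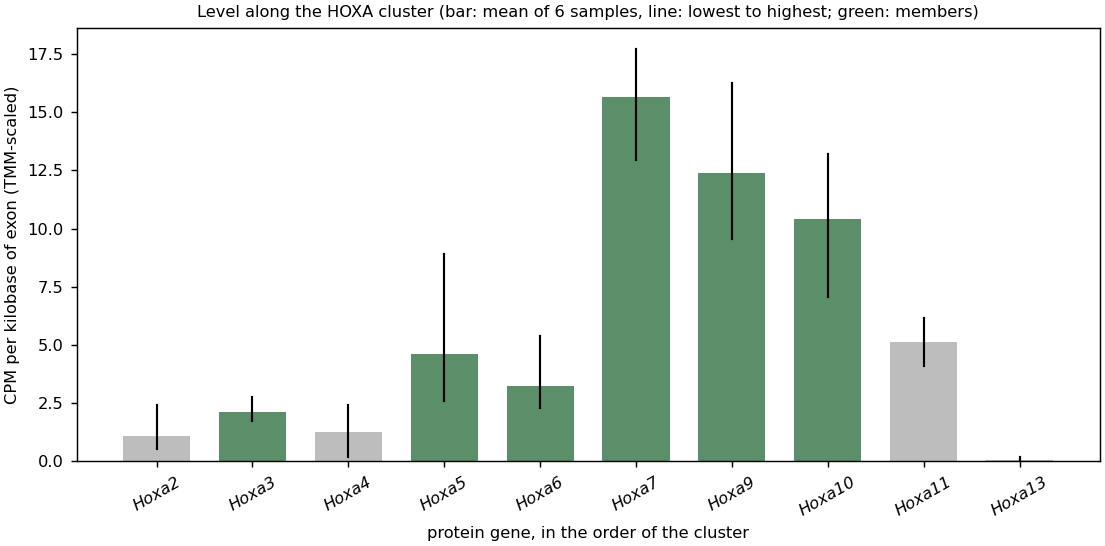
Normalised CPM per kilobase of exon (vertical axis, from 0) for 10 HOXA protein genes in the order of the cluster (horizontal axis). Bars are means of 6 summed samples, lines run from the lowest to the highest sample, and members are green; Hoxa7, Hoxa9 and Hoxa10 average 10.4 or more and Hoxa11 5.11.

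Hoxa9 was also read against its cluster, which removes differences in library scaling. It took 36.9, 30.002 and 32.0% of all HOXA counts in the control samples and 37.3, 35.9 and 38.6% in the Mt1ko samples. Control 1-3 lay above Mt1ko 10-12, so the groups overlapped. The means were 33.0 ± 3.54% and 37.3 ± 1.40% (SD, n = 3 each; exact two-sided permutation test, p = 0.2). The summed HOXA level was 183 ± 7.59 CPM over the controls and 207 ± 31.3 CPM over the Mt1ko samples (SD, n = 3 each).

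Count ratios were then taken for all 6 pairs among Hoxa9, Hoxa7, Hoxa10 and Meis1, a choice made after their values were seen. The ratio of Hoxa9 to Meis1 was 2.79, 2.36 and 3.08 in the control samples and 3.15, 3.79 and 4.23 in the Mt1ko samples. The groups did not overlap, but the gap was narrow: the counting interval of control 14-15 reached 3.28 and that of Mt1ko 4-6 began at 3.01. The means were 2.74 ± 0.364 and 3.72 ± 0.544 (SD, n = 3 each; exact two-sided permutation test, p = 0.1, the smallest possible).

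The ratio of Hoxa9 to Hoxa7 was 1.55, 1.05 and 1.54 in control and 1.57, 1.64 and 1.90 in Mt1ko. These groups did not overlap either, and control 1-3 and Mt1ko 4-6 differed by less than their counting error. The means were 1.38 ± 0.283 and 1.70 ± 0.175 (SD, n = 3 each; exact two-sided permutation test, p = 0.1). With library 6 left out, the ratios of sample Mt1ko 4-6 were 3.22 to Meis1 and 1.69 to Hoxa7, still above all controls. The other 4 ratios overlapped between the groups, with exact permutation p-values from 0.3 to 1. For comparison, 5.46% of all pairs of genes with a mean of 20 to 100 CPM had ratios that did not overlap. Over the 6 pairs, an exact p of 0.1 cannot pass a threshold of 0.05. Single libraries of the groups overlapped widely: Hoxa9 to Meis1 ran from 1.65 to 3.78 in control and from 2.46 to 5.69 in Mt1ko.

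**Figure D4:**
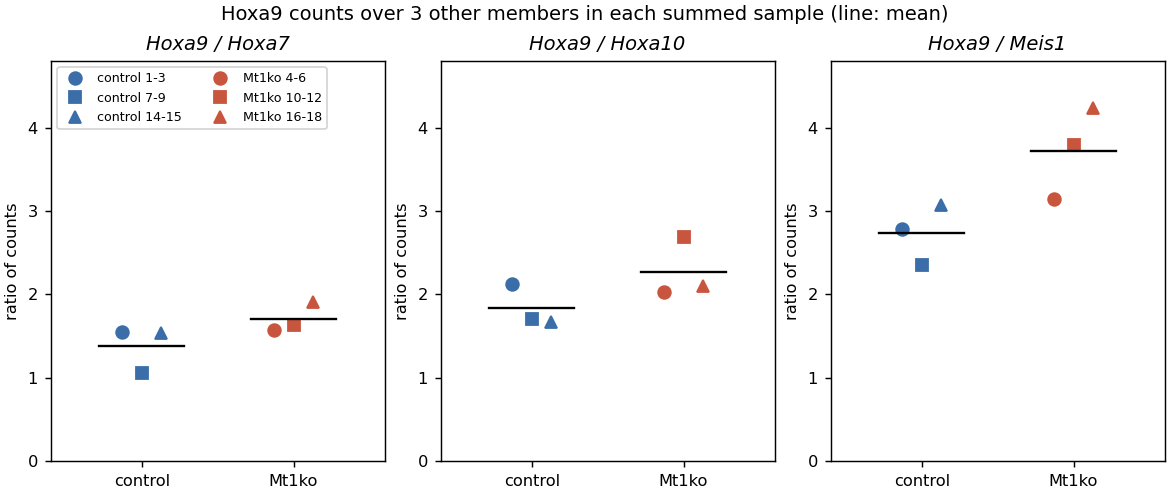
Ratio of Hoxa9 counts to Hoxa7, Hoxa10 and Meis1 counts (vertical axes, from 0) in each summed sample, control in blue and Mt1ko in red, with a line at each mean. The symbols do not overlap between groups for Hoxa7 and Meis1 and do for Hoxa10; the lowest Mt1ko ratio to Meis1 is 3.15 and the highest control ratio is 3.08.

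The members differed in how evenly the libraries of a sample held them. The SD of log2(CPM + 1) within summed samples was 0.18 for Hoxa9, 0.25 for Hoxa7, 0.31 for Hoxa10 and 0.38 for Meis1, beside a median of 0.32 over the 4484 tested genes with a mean of 20 to 100 CPM. It was 0.74 for Hoxa3, 0.96 for Hoxa5 and 1.12 for Hoxa6, beside 0.47 over all tested genes. With 0.1 CPM added in place of 1, the SD was 1.99 for Hoxa6 and 0.80 over all tested genes. Among the members, libraries of a sample disagreed most for these 3 genes. For Pbx3 the SD was 0.33 within and 1.21 between samples, and the latter includes Mt1ko 10-12, where Pbx3 had no count. For Hoxa9 the variance within samples was 39.02 times the Poisson expectation and for Hoxa5 140 times, so counting error was a small part of the spread.

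Likeness across libraries was described with Pearson's r of log2(CPM + 1) over 17 libraries, which share samples and depth, and of which 10 to 12 stood apart. Hoxa10 was the member most like Hoxa9, at r = 0.54, and 12.5% of genes were more alike. Over the 14 libraries without 10 to 12, r was 0.59 for Hoxa10 and fell to 0.05 for Meis1 from 0.41. Among the genes most like Hoxa9 were Mmp10 (0.90), a matrix protease, Ccr3 (0.88), an eosinophil chemokine receptor, and Cxcl3 (0.82), a neutrophil chemokine. Those most like Meis1 were Nsdhl (0.91), Cox4i1 (0.90), Rpl5 (0.90), Mto1 (0.89) and Rnpep (0.89). Without libraries 10 to 12, the r with Meis1 was 0.84 for Nsdhl, 0.67 for Cox4i1, 0.65 for Rpl5, 0.72 for Mto1 and 0.76 for Rnpep. The r with Hoxa9 was then 0.88 for Mmp10, 0.86 for Ccr3 and 0.83 for Cxcl3.

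The rest of the pathway was read from lists of related genes, in which 0 genes were called. Among 9 other TALE cofactors, 6 were tested, 4 with higher and 2 with lower means in Mt1ko (median log2 fold change 0.02). Tgif1, a TALE repressor, averaged 42.8 ± 7.81 CPM (control) and 47.8 ± 22.6 CPM (Mt1ko; SD, n = 3 each). Pknox1, a MEIS relative that binds PBX, was 33.9 ± 8.19 and 34.7 ± 3.45 CPM, and Pbx2 was 15.2 ± 1.04 and 15.3 ± 3.84 CPM. Among 20 activating chromatin regulators of HOX loci, 9 were higher and 11 lower (median -0.01). Kmt2a, the histone methyltransferase that maintains HOX expression, averaged 268 ± 34.5 CPM (control) and 263 ± 57.3 CPM (Mt1ko). Aff1, an elongation factor, was 328 ± 16.2 and 322 ± 21.3 CPM (SD, n = 3 each).

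Among 22 Polycomb genes, 9 were higher and 13 lower (median -0.08), and Jarid2, a cofactor of the Polycomb complex PRC2, averaged 125 ± 18.1 CPM (control) and 114 ± 26.1 CPM (Mt1ko; SD, n = 3 each). Of 25 genes bound or driven by HOXA9 and MEIS1, 23 were tested, 13 higher and 10 lower (median 0.05). Hif1a, Syk and Cdk6 were the most abundant of them, and Syk, a signalling kinase, was 368 ± 42.5 and 346 ± 6.41 CPM (SD, n = 3 each). Flt3, a receptor often high with HOXA9, stayed at or below 5.09 CPM in all 6 samples. Sox4, a progenitor transcription factor, was the 1 gene of this list with an unadjusted p under 0.05 (edgeR adjusted p = 1). Of all genes tested, 1.03% had such a p. The controls held 0.134, 0.309 and 0.683 CPM of Sox4, from 91 counts in all, and the Mt1ko samples held none. Sox4 thus passed the filter on low counts through the controls alone, so no conclusion is drawn from its p or its separation. Groups lay apart with Mt1ko lower in 4.36% of genes. Of 15 stem and progenitor markers, 12 were tested, 9 higher and 3 lower (median 0.28). The summed level of the 15 was 750 CPM in Mt1ko 10-12 and 379 to 427 CPM in the other 5 samples. Not all of these markers were raised in Mt1ko 10-12. Runx1, Gata2 (also on the mast cell list) and Cd34 held 267, 129 and 76.8 CPM there. Spi1 and Meis1, at 107 and 16.4 CPM, were lower there than in any other sample, and Hlf, Fgd5 and Mycn were at 0.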

How the data were processed

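Per the labels' protocols, the RNeasy Micro kit gave total RNA, and a stranded total RNA kit for small inputs (SMARTer v2-Pico) gave the libraries. Trimmomatic 0.35 and RSEM 1.3.3, with GRCm38 and mm10 as builds, are named in the submitters' processing notes; the sources used here do not give the aligner or strand setting. The deposited values are whole counts per gene for 17 libraries and for the authors' 6 sums of them, and each sum equalled its libraries in every gene. The sources used here do not say how RSEM estimates became whole numbers. Titles run from 1 to 18, and library 13 was not analysed here.

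The quasi-likelihood F test of edgeR 4.0.16 (R 4.3.3) was run on the counts of the 6 sums, after filterByExpr and TMM scaling, with group alone in the model and Benjamini-Hochberg adjustment over all tested genes. Levels of sums are TMM-scaled CPM, and levels of libraries are CPM of all counts. The TMM factor of Mt1ko 10-12 was 0.852 and those of the other 5 lay between 1.00 and 1.05. Fold changes are fitted values on the log2 scale. Ratios and shares were compared with exact permutation tests, and their intervals are exact binomial limits at 95% that cover counting error only. Coordinates and exon lengths are from GENCODE vM21 (55227 of 56305 identifiers matched), and promoters are from RefSeq.

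The members, the gene lists and the tests were chosen with earlier results of these data known. Named genes were the members, Mt1, of each other list up to 4 with the highest mean CPM, and the 5 genes (average log2 CPM 1 or more) most like Hoxa9 and Meis1, leaving out predicted loci. Some of the genes this rule allows are not reported here. Flt3, Sox4 and the HOXA genes that are not members were chosen after their values were seen, as were Hoxaas3, Mir196b and Hoxb13. The alternatives tried were 2 other scalings (RLE, upper quartile), the filter on low counts left out or made stricter, single libraries with and without the second index, DESeq2 1.42.0, limma-voom (limma 3.58.1), thresholds of 0.01 and 0.10, samples or libraries left out, and mitochondrially encoded genes left out. Leaving out library 10 or 11, or samples 7-9 and 10-12 together, was chosen after seeing the data.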

Additional observations from a re-analysis of the deposited data

Results flagged for a closer look

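Among the 9 Mt1ko libraries, 3 members had a single library far from the others by the gap between it and its nearest neighbour relative to the whole range. Hoxa5 was 33.6 CPM in library 10, from 1010 counts, and 13.5 CPM in the next highest library. Hoxa6 was 11.2 CPM in library 11, from 374 counts, and 3.27 CPM in the next. Hoxb4 was 3.69 CPM in library 11 and 0 in the other 8. In all, 18 groups of library values were examined, and chance marks about 1 in 20 where values are normally distributed. Library CPM with values at 0 need not keep that rate. With 8 of the 9 Hoxb4 values at 0, the gap was the whole range and its flag was fixed in advance. Both libraries belong to sample Mt1ko 10-12, whose mitochondrial RNA, gene number and mast cell marker levels are given above, and their part in these values was not tested.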

How the results depend on the processing

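No member was called under any of the 22 alternatives, and of 176 alternative fold changes of members 160 kept their sign and 16 did not. Hoxa9 stayed positive (log2 fold change 0.23 to 0.54) and Pbx3 negative (-3.15 to -0.11) in all 22. The sign of Hoxa3 turned to -0.014 with the second index as a covariate over 17 libraries, to -0.074 without Mt1ko 16-18 and to -0.12 without library 11. Hoxa7 turned to -0.079 without control 14-15, to -0.057 without Mt1ko 4-6 and to -0.0010 without Mt1ko 16-18, and Hoxa10 to -0.071 without Mt1ko 16-18. Hoxa6 turned to -0.17 without Mt1ko 10-12, to -0.21 with library 6 left out too, to -0.19 without control 7-9 and Mt1ko 10-12, and to -0.75 without library 11. Meis1 turned to 0.032 without control 1-3, and to 0.080, 0.11 and 0.087 in the same 3 settings without Mt1ko 10-12. Hoxa5 turned to -0.012 without library 10. Leaving out each sample in turn gave -0.074 to 0.26 for Hoxa3, -0.17 to 0.50 for Hoxa6, -0.079 to 0.15 for Hoxa7, -0.071 to 0.33 for Hoxa10 and -0.23 to 0.080 for Meis1. The cause was not tested.

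The count of all genes called was 0 as reported and 1 with 17 libraries entered singly, with DESeq2, with library 6 left out and with library 6 and Mt1ko 10-12 left out, where the gene was Mt1; it was 1 without control 7-9 and Mt1ko 10-12, where the gene was mt-Co3. The count of members whose groups lay apart was 0 as reported, 0 to 2 when each sample was left out in turn (where 13.3 to 17.5% of tested genes lay apart), and 3 both with library 6 and Mt1ko 10-12 left out and without control 7-9 and Mt1ko 10-12. In those last 2 settings 18.1% and 30.9% of tested genes lay apart. Without control 1-3 the member was Hoxa9, without control 14-15 it was Pbx3, and without Mt1ko 10-12 they were Hoxa9 and Hoxa10. 

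No paired analysis was possible because the labels number the libraries in 1 run over both groups, so control and Mt1ko samples share no replicate number. The 6 samples, 1 of them with an unusual RNA content and 1 holding a library that went against its label, limit what these comparisons can show; the interval of Hoxa9 reached from -0.06 to 0.78 on the log2 scale.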

Other observations

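Hoxb13, a posterior HOXB gene, was the 1 HOXB gene with an average of at least 1 CPM. Control samples 1-3, 7-9 and 14-15 held 3.86, 1.498 and 7.35 CPM of it, and Mt1ko samples 4-6, 10-12 and 16-18 held 5.97, 1.77 and 6.39 CPM. The groups overlapped, with samples 7-9 and 10-12 lowest in each group, and the log2 fold change was 0.15 (SE 0.70; edgeR adjusted p = 1). Hoxa11os, a noncoding RNA antisense to Hoxa11, measured 7.81, 7.81 and 5.77 CPM in control and 9.58, 9.95 and 9.86 CPM in Mt1ko. All 3 Mt1ko samples lay above all 3 controls, as did 2.74% of tested genes, and the log2 fold change of 0.46 (SE 0.27) did not pass the threshold (edgeR adjusted p = 1). Hoxa11 itself averaged 11.3 ± 2.47 CPM (control) and 12.1 ± 2.37 CPM (Mt1ko; SD, n = 3 each). Of its exon bases, 35.0% are shared with Hoxa11os, and the sources used here do not say how the counting used strand.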
